A study of Mus musculus with 4 samples.

Results

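Dub1, Dub1a and Usp17l5, of the Usp17-like family, and Tdpoz1, Tdpoz2, Tdpoz3, Tdpoz4 and Tdpoz5, of the Tdpoz family, are 8 of the 37310 genes in a deposited mRNA-seq table of mouse embryonic stem cells (mESCs). They were picked by gene symbol with their higher levels in the libraries labelled Bmal1-/- already known, so their differences between the labels are given as a description without a test. All cells were of the JM8 line, derived from C57BL6/N mice, and were grown without feeders in LIF with the pair of inhibitors known as 2i, PD0325901 against Mek (1 µM) and CHIR99021 against Gsk3 (3 µM). There were 2 libraries of wild-type cells and 2 labelled Bmal1-/-. The Bmal1-/- line is a single clone made with CRISPR/Cas9, carrying a different frame-shifting indel on each allele, so that clone and genotype cannot be told apart. Reads on genes numbered 21737170 and 21504265 for wild-type and 23329034 and 23021702 under the label Bmal1-/-. Values are read counts that the authors scaled by TMM (trimmed mean of M values), and 3 reads correspond to values of 2.82 to 3.19.

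Proteins of the Usp17-like family are cysteine proteases that remove ubiquitin from other proteins. Dub1 and its first-described relatives were found as genes that cytokines induce in blood cell lines. Tdpoz proteins combine a TRAF-like domain with a POZ (BTB) domain, the same pair of domains as in Spop, which brings substrates to Cul3 ubiquitin ligases. Both families are multicopy genes that lie in clusters, and both are transcribed when the genome of the mouse embryo is first switched on, at the two-cell stage. Cultures of mESCs contain rare cells that express genes of that stage.

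The sequence of the members bears on every value below, because a read that matches several copies cannot by itself be assigned to one of them. Coordinates of genes are mm9, with GENCODE annotation. Over the bases that align, the longest transcripts of Dub1 and Usp17l5 were 93.6% identical, those of Dub1a and Usp17l5 91.3%, and those of Dub1 and Dub1a 90.8%. The Tdpoz transcripts were more diverse, from 76.4% for Tdpoz3 and Tdpoz4 to 88.1% for Tdpoz1 and Tdpoz3. The first stretch below is a 75-base exon window, the length of a read, that occurs unchanged in all 3 Usp17-like members and at 4 places in the genome (read from Dub1, chr7:112008863-112008937, + strand). The second is found unchanged in Tdpoz1 and Tdpoz3 and at 3 places (read from Tdpoz1, chr3:93474579-93474653, - strand), and the third is the first of the Tdpoz5 windows with most copies, found at 4 places that include Gm10697 (chr3:93764244-93764318, - strand).
Dub1, shared with Dub1a and Usp17l5: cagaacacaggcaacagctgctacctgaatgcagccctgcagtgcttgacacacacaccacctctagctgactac
Tdpoz1, shared with Tdpoz3: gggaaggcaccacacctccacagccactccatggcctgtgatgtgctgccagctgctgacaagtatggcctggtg
Tdpoz5, shared with Gm10697: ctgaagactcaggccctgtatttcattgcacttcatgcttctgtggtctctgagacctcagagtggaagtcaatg

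Counted over whole exons, the share of 75-base windows found once in the mm9 genome was 89.6% of 2434 for Dub1, 84.1% of 1413 for Dub1a and 64.1% of 2279 for Usp17l5. It was 80.1% of 1039 for Tdpoz4, 63.6% of 976 for Tdpoz2, 53.8% of 1161 for Tdpoz1 and 45.5% of 1024 for Tdpoz3. None of the 949 windows of Tdpoz5 was found once: all of them lie in Gm10697 too, whose transcript is 100% identical, and 52.05% lie in Gm9107. Usp17l5 shared 803 windows (35.2%) with Dub2a, Tdpoz3 shared 558 (54.5%) with the pseudogene Gm4982, and Tdpoz1 shared 536 (46.2%) with each of Gm9117 and Gm9125. Dub1 also holds a dispersed repeat, with windows found up to 501 times. Thus single reads from most of the exons of Dub1, Dub1a and Tdpoz4 could be placed in 1 gene, those from Tdpoz3 in part, and those from Tdpoz5 not at all. The libraries had paired reads, and each window is 1 stretch within an exon. A pair could thus be placed where 1 of its reads could not, which these shares do not count. How the authors counted reads with several matches is not given in the sources used here.

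In the windows from 250 bases before to 50 bases after the annotated start of transcription (RefSeq, GRCm38.p6), the Usp17-like members were 89.5% to 95.3% identical over aligned bases. The promoter table matched 6 of the 8 members by RefSeq symbol or, for the Usp17-like members, by a synonym listed in RefSeq. Tdpoz2 and Tdpoz3 had no entry. The windows of the 5 matched members with reads are shown because these genes were high in the same libraries. Capitals mark matches to 4 motifs searched on both strands, which do not overlap each other: CACGTG, the E-box bound by Bmal1 with Clock; TATAAA, the TATA box; CCAAT, the CCAAT box (ATTGG on the other strand); and GATTNAATC, the core of the motif known for the two-cell factor Dux.
Dub1 (Usp17la in RefSeq), chr7:104856766-104857065, + strand: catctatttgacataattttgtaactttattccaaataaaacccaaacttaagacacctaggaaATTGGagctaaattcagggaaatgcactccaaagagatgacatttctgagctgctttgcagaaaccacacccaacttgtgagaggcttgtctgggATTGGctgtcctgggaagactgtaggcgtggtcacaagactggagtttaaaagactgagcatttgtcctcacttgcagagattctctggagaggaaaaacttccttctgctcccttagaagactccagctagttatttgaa
Dub1a (Usp17lb), chr7:104842534-104842833, - strand: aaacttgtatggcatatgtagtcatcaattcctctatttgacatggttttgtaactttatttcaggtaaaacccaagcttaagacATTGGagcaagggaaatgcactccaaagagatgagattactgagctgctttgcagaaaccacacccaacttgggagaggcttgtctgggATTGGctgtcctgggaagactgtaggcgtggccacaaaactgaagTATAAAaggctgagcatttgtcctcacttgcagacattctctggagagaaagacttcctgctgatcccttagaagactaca
Usp17l5 (Usp17lc), chr7:103416446-103416745, + strand: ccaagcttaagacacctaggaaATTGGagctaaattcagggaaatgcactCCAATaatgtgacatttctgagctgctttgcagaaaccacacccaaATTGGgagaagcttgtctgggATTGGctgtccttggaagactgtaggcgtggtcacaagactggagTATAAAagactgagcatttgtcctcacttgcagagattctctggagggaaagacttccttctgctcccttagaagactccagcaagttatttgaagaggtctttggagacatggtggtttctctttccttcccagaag
Tdpoz1, chr3:93676234-93676533, - strand: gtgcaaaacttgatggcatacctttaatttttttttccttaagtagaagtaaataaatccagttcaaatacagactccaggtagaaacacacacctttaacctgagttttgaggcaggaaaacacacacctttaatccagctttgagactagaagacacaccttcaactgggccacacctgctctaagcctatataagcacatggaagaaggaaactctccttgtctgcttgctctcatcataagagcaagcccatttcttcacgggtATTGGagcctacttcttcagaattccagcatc
Tdpoz4, chr3:93796148-93796447, + strand: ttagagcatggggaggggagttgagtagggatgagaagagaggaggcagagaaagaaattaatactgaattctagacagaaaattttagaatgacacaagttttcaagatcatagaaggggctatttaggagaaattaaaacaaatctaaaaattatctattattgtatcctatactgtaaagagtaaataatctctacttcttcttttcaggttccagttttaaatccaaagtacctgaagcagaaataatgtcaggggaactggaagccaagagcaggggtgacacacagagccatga

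TATAAA was found in the windows of Dub1a, 31 bases before the start, and Usp17l5, 88 bases before it, and not in that of Dub1 or of a Tdpoz member. CCAAT was found 4 times for Usp17l5, 2 times each for Dub1 and Dub1a, and once each for Tdpoz1 and Tdpoz5, and not for Tdpoz4. CACGTG and GATTNAATC were found in none of the 6 members' windows. Of 32851 promoter windows in the table, 7.15% held CACGTG, 13.6% TATAAA, 37.4% CCAAT and 0.268% GATTNAATC. These matches describe letters in these windows only. For Tdpoz4 and Tdpoz5 the bases after the annotated start begin with ATG, the letters of a start codon. Their windows may therefore not lie at the place where transcription starts.

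Dub1 (ENSMUSG00000054568, chr7:112005523-112011181, + strand) had TMM-normalized read counts of 28.4 and 44.6 in wild-type cells against 394 and 421 under the label Bmal1-/-. Dub1a (ENSMUSG00000062369, chr7:111988771-111991117, - strand), its neighbour, had 37.9 and 60.5 against 453 and 484. Usp17l5 (ENSMUSG00000058976, chr7:110563586-110568394, + strand), which lies apart from that pair, had 50.6 and 71.2 against 546 and 548. For all 3 deubiquitinase genes both libraries labelled Bmal1-/- lay far above both wild-type libraries, and wild-type replicate 2 was the higher of its pair. On the log2(value + 1) scale the difference between the label means was 3.48 ± 0.45 for Dub1, 3.26 ± 0.47 for Dub1a and 3.17 ± 0.34 for Usp17l5 (SD, n = 2 libraries per label). An annotated microRNA gene, AC162877.1, lies within Usp17l5 on the same strand and was listed with 2 and 0 reads against 12 and 14.

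**Figure D1:**
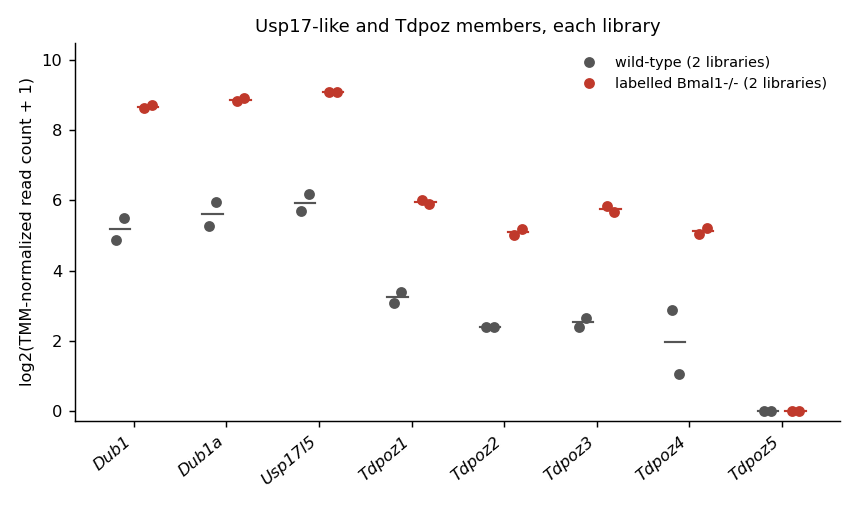
TMM-normalized read counts of the 8 members in each library, as log2(value + 1); points are libraries, bars the mean of 2 libraries per label. For 7 members both libraries labelled Bmal1-/- lie above both wild-type libraries, and Tdpoz5 is at 0 in all 4.

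The Tdpoz members were expressed at lower levels. Tdpoz1 (ENSMUSG00000059676, chr3:93474184-93475418, - strand) had 7.37 and 9.56 in wild-type and 63.9 and 59.1 in the libraries labelled Bmal1-/-. Tdpoz3 (ENSMUSG00000058005, chr3:93629942-93631039, + strand) had 4.21 and 5.31 against 56.4 and 49.6. Both genes were close to the level of a few reads in wild-type cells, and the labels did not overlap. Tdpoz2 (ENSMUSG00000057901, chr3:93455493-93456585, - strand), which GENCODE lists as a pseudogene, had 4.21 and 4.25 against 31.0 and 35.3. Tdpoz4 (ENSMUSG00000060256, chr3:93600320-93601432, + strand) had 6.32 and 1.06 against 31.9 and 36.2. Tdpoz4 was the member whose wild-type libraries lay furthest apart on the log2 scale, with 6 reads and 1 read. Tdpoz5 (ENSMUSG00000074427, chr3:93764214-93765236, - strand) was listed at 0 in all 4 libraries, and since none of its windows is found once this 0 says nothing of its expression.

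The log2 difference was 2.73 ± 0.25 for Tdpoz1, 2.70 ± 0.13 for Tdpoz2, 3.23 ± 0.23 for Tdpoz3 and 3.17 ± 1.30 for Tdpoz4 (SD, n = 2 libraries per label). For Tdpoz4 it depended on wild-type replicate 2, being 2.26 without it and 4.09 without wild-type replicate 1. A pseudocount of 10 lowered these differences to 1.95, 1.60, 2.09 and 1.71 for Tdpoz1 to Tdpoz4, whose wild-type values are near or below it. The members with reads took places 87 (Dub1) to 179 (Tdpoz2) from the highest log2 difference among the 14510 genes whose mean value reached 10. All 7 members with reads met that filter, but 4 of them (Tdpoz1 to Tdpoz4) had a wild-type mean under 10 and met it only through the libraries labelled Bmal1-/-, so they had to differ. Both libraries labelled Bmal1-/- were above both wild-type libraries for 7 of 8 members, against 34.6% of the 14510 genes and 29.3% of the 23598 genes with a read; since the members were chosen on this contrast, nothing is read from that count.

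Summing over a family sets aside how reads were split among its members, but not reads given to other copies. The Usp17-like sum was 117 and 176 in wild-type and 1392 and 1453 in the libraries labelled Bmal1-/-, from 111 and 166 reads and from 1482 and 1524. The Tdpoz sum was 22.1 and 20.2 against 183 and 180, from 21 and 19 reads and from 195 and 189. The log2 difference was 3.30 ± 0.42 for the Usp17-like sum and 3.05 ± 0.09 for the Tdpoz sum (SD, n = 2 libraries per label). In bulk RNA, a larger share of cells expressing these genes and more of their RNA in each cell cannot be told apart.

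In all 4 libraries Usp17l5 gave the most reads of the Usp17-like sum, then Dub1a and then Dub1. Usp17l5 contributed 43.2% and 40.4% of the family's reads in wild-type and 39.2% and 37.7% in the libraries labelled Bmal1-/-. Dub1a contributed 32.4% and 34.3% against 32.5% and 33.3%, and Dub1 24.3% and 25.3% against 28.3% and 28.9%. The shares of Usp17l5 and Dub1 did not overlap between the labels, and this difference was not tested. Among the Tdpoz members, Tdpoz1 contributed 34.9% and 32.8% and Tdpoz3 30.8% and 27.5% in the libraries labelled Bmal1-/-. The 21 and 19 Tdpoz reads of the wild-type libraries were too few to compare shares.

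Levels of different genes were compared per kilobase of exon. In the libraries labelled Bmal1-/-, Dub1a had the highest level with a mean of 300.2 normalized reads per kb, followed by Usp17l5 with 223 and Dub1 with 153. Tdpoz1 and Tdpoz3 followed at 49.8 and 48.2, with overlapping libraries, and Tdpoz4 and Tdpoz2 at 30.6 and 30.3, also overlapping. In wild-type, Dub1a (31.5 per kb) and Usp17l5 (24.8 per kb) overlapped and both were above Dub1 (13.8 per kb). Tdpoz1 followed at 6.86 per kb, and Tdpoz3, Tdpoz2 and Tdpoz4 at 4.34, 3.88 and 3.32 could not be ordered. Under both labels the means of the Usp17-like genes stood in the same order and above every Tdpoz member. Means were also divided by the number of windows found once (per 1000 of them), without comparing single libraries. The Usp17-like means were again above that of every Tdpoz member with reads. In wild-type the closest were Dub1 (16.8) and Tdpoz1 (13.6, from 7 and 9 reads), and their order is not secure. Neighbours changed places: in wild-type Usp17l5 (41.7) and Dub1a (41.4) were level. In the libraries labelled Bmal1-/- Tdpoz3 (114) was above Tdpoz1 (98.6) and Tdpoz2 (53.4) above Tdpoz4 (41.0).

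The choice of members did not use the difference between the replicates of a label. Of the wild-type reads on all genes, 49.7% were in replicate 2, but of the reads of the Usp17-like sum 59.9% were (exact binomial 95% interval 53.9% to 65.8%). The value in wild-type replicate 2 was 1.51 times that in replicate 1. The share was 60.9% for Dub1 (48.4% to 72.4%), 61.3% for Dub1a (50.6% to 71.2%) and 58.3% for Usp17l5 (48.7% to 67.4%), so that the interval left out the share of all genes for the sum and Dub1a, and not for Dub1 or Usp17l5. For the Tdpoz sum it was 47.5% (31.5% to 63.9%), and no departure was detectable at this depth. In the libraries labelled Bmal1-/-, where 49.7% of all reads were in replicate 2, the share was 50.7% for the Usp17-like sum (48.9% to 52.5%) and 49.2% for the Tdpoz sum (44.1% to 54.3%). A total of 18 such intervals were computed without adjustment, and they cover counting error only.

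Close relatives were found by sequence, as genes whose transcript matched a member over at least 50% of its length with at least 80% identity, which left 3 Usp17-like and 13 Tdpoz genes. They were tested with limma together with all 14510 genes, of which 7.21% were called, 5.75% higher in the libraries labelled Bmal1-/- and 1.45% lower (over 2-fold, Benjamini-Hochberg adjusted p under 0.05). That split was 835 higher and 211 lower genes, and with quantile normalization in place of TMM it was 590 and 426. Of the 16 relatives 12 had reads and 7 met the filter, of which 6 rose and none fell. Among the 6, Dub2a, Gm10696 and Gm5286 had a wild-type mean under 10 and met the filter only through the libraries labelled Bmal1-/-, so they had to differ. Reads shared with the members limit how far these genes are separate measurements.

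Among the deubiquitinase genes, Dub3 had 35.8 and 51.0 in wild-type against 417 and 436 under the label Bmal1-/- (log2 fold change 3.29, adjusted p = 2.84e-13, limma). Dub2a had 9.48 and 9.56 against 122 and 116 (3.51, adjusted p = 1.67e-10), and with a pseudocount of 10 its log2 fold change was 2.73. Dub3 lies between Usp17l5 and Dub1a and Dub2a beyond Usp17l5, and 81.1% and 57.4% of their windows were found once. The pseudogene Usp-ps, with 89.2% of its windows found once, was at 0 in all 4 libraries.

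Among the Tdpoz relatives, Gm4778 had no window in common with another place in the genome (100% found once). It had 16.9 and 26.6 in wild-type against 269 and 293 under the label Bmal1-/- (log2 fold change 3.67, adjusted p = 2.51e-12, limma). Gm4858, named Tdpoz8 in RefSeq and with 92.0% of windows found once, had 59.0 and 60.5 against 673 and 688 (3.49, adjusted p = 5.09e-16). These 2 relatives were above every Tdpoz member in each library, also per kilobase of exon, with all or most of their windows found once. Gm10696 had 4.21 and 4.25 against 62.9 and 55.3 (3.52, adjusted p = 2.78e-08), and Gm5286 had 2.11 and 3.19 against 24.4 and 29.6 (2.95, adjusted p = 1.23e-05), with 24.4% and 6.71% of windows found once. A pseudocount of 10 lowered the log2 fold change to 2.28 for Gm10696 and 1.55 for Gm5286. After quantile normalization it was 2.96 for Gm10696 and 2.23 for Gm5286.

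Gm9107, 98.9% identical to Tdpoz5, was the relative that met the filter without passing the test. It had 186 and 227 in wild-type against 195 and 202 under the label Bmal1-/- (log2 fold change −0.05, adjusted p = 0.736, limma), so that in wild-type it was above all Tdpoz members together. With equal library totals the fold change was 0.0094, and without wild-type replicate 2 it was 0.0916. Gm9116 (0 and 1 read against 12 and 9) and Gm5852 (1 and 1 against 5 and 7) did not meet the filter. With the filter lowered to a mean of at least 1 or left out, both were called higher, and 8 relatives were called. Gm9116 met the lowered filter only through the libraries labelled Bmal1-/- and had to differ. Gm9117, Gm9125 and Gm5773 had at most 2 reads in a library, and no window of Gm9117 or Gm9125 was found once. Gm10697, Gm9141 and Gm4982 were at 0; Gm4982 has as many windows found once as Tdpoz3 (466), for which 60 and 52 reads were counted in the libraries labelled Bmal1-/-.

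**Figure D2:**
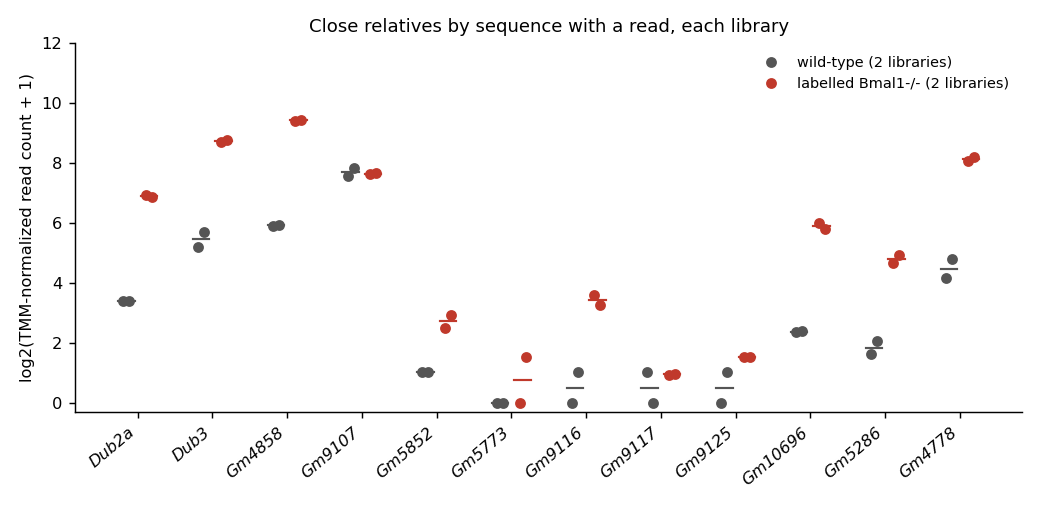
TMM-normalized read counts of the 12 close relatives with a read, as log2(value + 1), in each library; bars are means of 2 libraries per label. Gm9107 is at a similar level under both labels, and Dub2a, Dub3, Gm4858, Gm10696, Gm5286 and Gm4778 are higher in the libraries labelled Bmal1-/-.

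**Figure D3:**
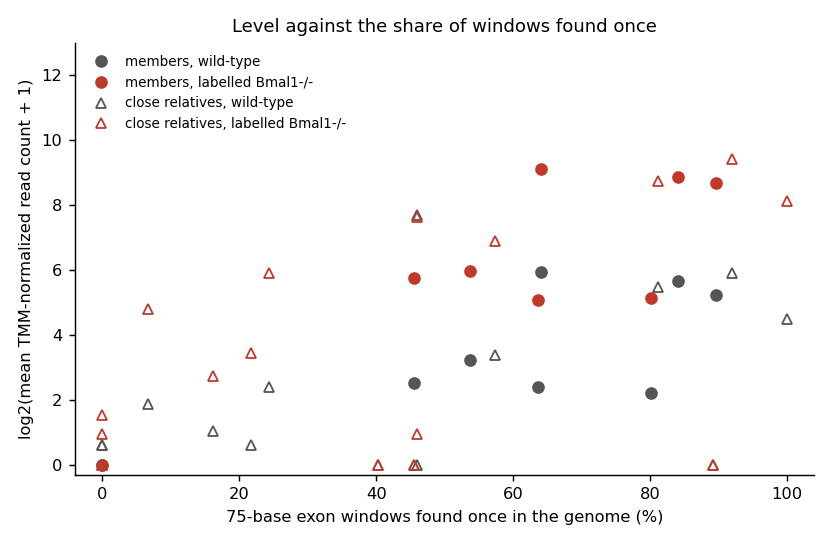
Mean TMM-normalized read count per label, as log2(mean + 1), against the percentage of 75-base exon windows found once in the mm9 genome, for the 8 members (filled circles) and 16 close relatives (open triangles). Genes with 0% of windows found once, Tdpoz5 among them, held 0 to 2 reads in every library.

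With its relatives included, the Usp17-like sum was 162 and 237 in wild-type against 1931 and 2005 under the label Bmal1-/- (log2 difference 3.32). The widened Tdpoz sum was 293 and 345 against 1426 and 1468 (2.18), and Gm9107 made up 186 and 227 of the wild-type values.

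The neighbours of the members in the genome were compared next. The Usp17-like members span 1447.6 kb of chromosome 7, among 135 annotated genes within 250 kb of the outermost members that are not close relatives. Of these, 107 were at 0 in all 4 libraries, and 93 were olfactory receptor genes, none of which met the filter. The 5 that did, Trim6, Trim34a, Trim5, Trim12a and Trim12c, of a family of antiviral and ubiquitin ligase genes, had log2 fold changes from −0.29 to 0.40, and none was called. The Tdpoz members span 309.7 kb of chromosome 3, with 8 neighbours that are not close relatives, of which 3 met the filter and none was called. Tchh, a hair follicle protein gene, had a log2 fold change of 0.96 (adjusted p = 1.21e-06), and S100a11 and S100a10, genes of calcium-binding proteins, had −0.49 and −0.56 (adjusted p = 4.17e-08 and 4.91e-07, limma). Tchh passed the fold threshold with equal library totals (1.02) and without wild-type replicate 1 (1.00). Below the filter, 3 rows near the Usp17-like members were called when it was lowered to a mean of 1 or left out. AC162877.1 lies inside Usp17l5 on the same strand and is no separate neighbour. AC108410.1, at 0 and 0 in wild-type against 4.70 and 2.86, met the lowered filter only through the libraries labelled Bmal1-/- and had to differ. Trim30d had 1.05 and 2.12 against 11.3 and 6.68.

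**Figure D4:**
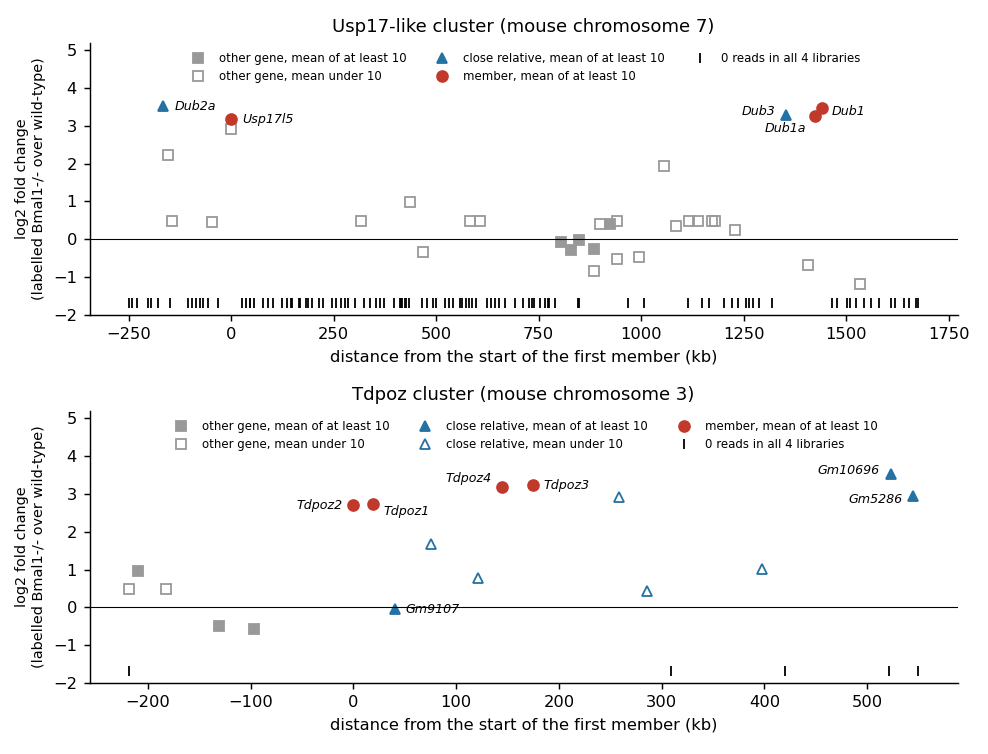
Log2 fold change (labelled Bmal1-/- over wild-type, log2(value + 1) scale) of annotated genes against the distance in kb from the first member, in the Usp17-like and Tdpoz clusters. Filled symbols have a mean of at least 10, open symbols a lower mean, and ticks mark genes at 0 in all 4 libraries; the 7 members with reads lie between 2.70 and 3.48, and genes that met the filter and are not close relatives between −0.56 and 0.96.

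The genes whose pattern over the 4 libraries was most like the Usp17-like sum, by the mean absolute difference of log2(value + 1) centred on its mean, were Dub3 (0.025), Gm13964 (0.033), AA792892 (0.042), Gm11546 (0.062) and Tex13 (0.065). For the Tdpoz sum they were Gm7957 (0.040), Limch1 (0.057), Gm11800 (0.065), Gm7942 (0.068) and Gm3147 (0.072). AA792892 had 44.2 and 60.5 in wild-type and 497 and 527 in the libraries labelled Bmal1-/-, and Limch1, an actin-binding protein gene, had 44.2 and 39.3 against 334 and 375. Only Dub3 among these 10 is a close relative of a member.

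Lists of genes around the members were set beside them. Of 50 other USP deubiquitinase genes tested, 1 was called higher and none lower at the 2-fold threshold, while 18 were higher and 8 lower at an adjusted p under 0.05 alone (limma). Of all 14510 genes, 5.75% were called higher and 1.45% lower at the 2-fold threshold, and 24.0% were higher and 28.6% lower by adjusted p alone. The median log2 fold change was 0.04, against −0.03 over all genes tested. The one called was Usp26, with 41.1 and 25.5 in wild-type and 117 and 121 in the libraries labelled Bmal1-/- (1.85, adjusted p = 3.42e-07, limma). Of 47 genes of Cul3 and its BTB adaptors, 2 were called higher and none lower at the 2-fold threshold, against 13 higher and 14 lower by adjusted p alone (median −0.03). They were Klhl3 (1.13, adjusted p = 2.50e-05) and Rhobtb1 (1.45, adjusted p = 0.00484, limma). With a pseudocount of 10 and by DESeq2 only Klhl3 was called, and after quantile normalization only Rhobtb1. Without wild-type replicate 2 the change of Klhl3 was under 2-fold. Rhobtb1 had 7.37 and 5.31 in wild-type against 18.8 and 19.1, so it met the filter only through the libraries labelled Bmal1-/- and had to differ.

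The 6 genes of the Zscan4 cluster that were matched, a two-cell gene family whose proteins bind DNA, met the filter and were called higher, with log2 fold changes of 3.30 for Zscan4b, 3.79 for Zscan4c, 3.50 for Zscan4d, 3.91 for Zscan4e, 3.69 for Zscan4f and 3.81 for Zscan4-ps2 (median 3.74). Zscan4b, at 9.48 and 9.56 in wild-type, met it only through the libraries labelled Bmal1-/-. Zscan4c had the highest normalized counts of the 6, not divided by exon length, with 43.2 and 60.5 against 730 and 709. Of 24 other two-cell genes tested, 19 were called higher and 1 lower at the 2-fold threshold, against 21 and 2 by adjusted p alone (median 3.30). Of the 19, 4 (Olfr376, Gm4027, Pramef6 and Spz1) had a wild-type mean under 10 and met the filter only through the libraries labelled Bmal1-/-, so they had to differ. Among the highest were Olfr376 (4.02), Sp110 (4.003), Gm4027 (3.97), Ubtfl1 (3.84), Gm12794 (3.71), Gm13119 (3.65), Tmem92 (3.58), Gm5662 (3.51) and Zfp352 (3.46), and the one called lower was Zfp750 (−1.16), named after its value was seen. Both lists were written with the rise of two-cell genes in these libraries known, so they are not independent evidence of a direction.

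Of 37 genes known to act on the two-cell state, 1 was called higher and 1 lower at the 2-fold threshold, against 12 higher and 15 lower by adjusted p alone (median −0.09). At the 2-fold threshold the 2 calls compare with 5.75% higher and 1.45% lower of all genes. By adjusted p alone 24.0% of all genes were higher and 28.6% lower. The repressor Zfp809, which silences proviruses, had 545 and 529 in wild-type against 1200 and 1304 (1.22, adjusted p = 2.31e-12, limma), and the RNA-binding protein gene Lin28a had 1693 and 1560 against 563 and 535 (−1.57, adjusted p = 2.74e-14).

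**Figure D5:**
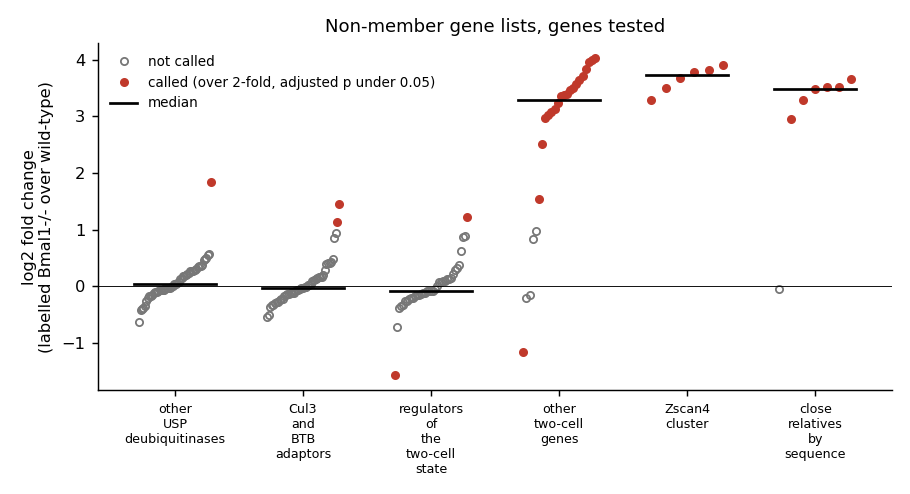
Log2 fold changes (labelled Bmal1-/- over wild-type, log2(value + 1) scale) of the genes tested in 6 lists that hold no member; filled points were called by limma, open points were not, and bars are medians. The medians are 0.04 for other USP genes and −0.03 for Cul3 and BTB adaptors, against 3.30 for other two-cell genes, 3.74 for the Zscan4 cluster and 3.49 for close relatives.

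Bmal1 (Arntl) mRNA had 678 and 733 in wild-type against 556 and 590 in those labelled Bmal1-/-, or 81.2% of wild-type (log2 fold change −0.30, adjusted p = 0.00113, limma). Counts over a whole gene do not show small indels, so this level does not check the genotype, and the libraries are named by their labels. The 7 mESC markers (Pou5f1, Nanog, Zfp42, Klf4, Esrrb, Tfcp2l1 and Tdgf1) had log2 fold changes from −0.14 to 0.40 and summed to between 111709 and 113531 in wild-type and between 121340 and 123602 in the libraries labelled Bmal1-/-. Of 6 fibroblast markers, Col1a2, Col3a1, Postn and Dcn had 3 reads or fewer in every library and the list summed to 69.5 to 75.4 against 97.3 to 108. Of 4 neural markers, Tubb3 (log2 fold change −1.22, adjusted p = 5.66e-13) and Pax6 (−1.71, adjusted p = 0.000338, limma) were called lower, Nes was not (−0.08, adjusted p = 0.254), and Fabp7 was at 0; the sum was 3486 to 3751 against 1967 to 2099. Of 5 blood markers, Ptprc and Hbb-b1 had 3 reads or fewer and the sum was 63.7 to 76.9 against 87.4 to 94.4. Of 4 oocyte markers, Oosp1 was at 0, and the sum was 395 to 406 against 277 to 298. The part of these differences in the members' values was not tested.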

How the data were processed

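mRNA from 4 cultures was sequenced by the authors as stranded libraries with paired 75-base reads, trimmed with cutadapt 1.9.1 and aligned to mm9 with STAR 2.5.2b, per the submitters' processing notes. The read counter is not given in the sources used here. The deposited values are a signal per gene, the read count divided by a TMM scaling factor of the library; 100% of values were whole multiples of the value of 1 read (tolerance 0.01), so whole reads were recovered. All 37310 genes matched the annotation. The labels number the libraries as experiments 1 and 2 within each genotype and do not say what a number shares; the study's methods call them biological replicates. P-values therefore measure only the spread between these libraries.

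For each gene whose mean over the libraries reached 10, log2(value + 1) was fitted with limma 3.58.1 (R 4.3.3; lmFit, then eBayes with trend), 2 libraries against 2, without covariates. Called genes changed over 2-fold with adjusted p under 0.05 (Benjamini-Hochberg over all genes tested); 1046 of 14510 genes (7.21%) were called. The members, lists and tests were chosen with earlier results of these data known. Named are all members, all close relatives with reads, up to 10 called genes of each list (1 is not reported here), the 5 genes most like each family sum, the defining markers of mESCs and Arntl; relatives at 0, neighbours of the members, Zfp750, Pramef6, Spz1 and other markers are named outside this rule, after their values were seen. Relatives came from blastn (BLAST 2.17.0), identities from MAFFT 7.526, and windows from exact matches to the mm9 genome on both strands. Tested on simulated data for this comparison (14510 genes), limma recovered 199 of 200 changed genes and called 1 unchanged gene. Alternatives were no filter or a mean of at least 1, pseudocounts of 0.5 and 10, equal totals, median-ratio factors, quantile normalization, edgeR 4.0.16 and DESeq2 1.42.0 on the recovered reads, a replicate block, each library left out, widened families, and windows compared with transcripts only. A fit with 1 library left out had 1 library in that group, and only the other pair gave the spread. Only log2 differences are given for such fits. With replicate numbers taken as pairs, deviations from the group means correlated at −0.02 over the 14510 genes, so the numbers were not treated as pairs.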

Additional observations from a re-analysis of the deposited data

How the results depend on the processing

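The log2 difference of the Usp17-like sum kept its direction in every setting tried, from 3.00 to 3.59 with 1 library left out, and was 0.22 when the close relatives and the 5 tested Trim neighbours were added to it. That of the Tdpoz sum was 2.98 to 3.11 with 1 library left out, 2.62 with a pseudocount of 10, 2.82 after quantile normalization, 2.18 with the close relatives and 0.085 with the tested neighbours as well, which include S100a11 and S100a10. The number of genes called was 704 with a pseudocount of 10, 862 by DESeq2, 1091 by edgeR and 1370 with a mean of at least 1. With the replicate block 1056 genes were called, and the number of calls in each list was the same. Of the Cul3 and BTB list 1 gene was called with a pseudocount of 10 (Klhl3), after quantile normalization (Rhobtb1) and by DESeq2 (Klhl3). Without wild-type replicate 1 the log2 fold changes were 1.41 for Klhl3, 1.66 for Rhobtb1 and 1.07 for Klhl15, which had 0.94 with all libraries. Without wild-type replicate 2 that of Rhobtb1 was 1.25, and the change of Klhl3 was under 2-fold. Of the neighbours of the Tdpoz members 1 (Tchh) was called with equal library totals, and 0 to 1 with 1 library left out (wild-type replicate 1). Of the neighbours of the Usp17-like members 3 (AC108410.1, AC162877.1 and Trim30d) were called without a filter and with a mean of at least 1. Of the close relatives 8, with Gm9116 and Gm5852 added, were called in these settings. The fold change of Gm9107 turned to 0.0094 with equal totals and 0.0916 without wild-type replicate 2, was −0.19 without wild-type replicate 1, and the cause was not tested. Limits: wild-type values of Tdpoz1 to Tdpoz4 rest on 1 to 9 reads, the Bmal1-/- line is 1 clone, and counts of copies that share windows depend on how reads were assigned.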
